A study of Rattus norvegicus with 18 samples.

Results

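The 53 mitosis and spindle genes examined here code for the kinases, cyclins, checkpoint proteins, kinetochore subunits, motors and condensins that carry a cell from late G2 through division. They were chosen by name from a list of genes with a known part in mitosis, and 46 of the 53 had a probe set of the rat array that names them alone. Of 14217 genes measured on the array by 31042 probe sets other than controls, these 46 were read with 64 probe sets, and for the 14 genes with more than 1 the probe set of highest mean log2 signal over all 18 samples was used. Tpx2, Ndc80, Nek2, Ncapg and Cdc25c had no probe set, and Ckap2 and Anln only one that names a further gene, so 7 genes have no value here.

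Oral epithelia and submucosal fibroblasts of rat tongue were profiled from normal tissue, from dysplasia and from squamous cell carcinoma (SCC), to ask how expression changes in each compartment as lesions progress. Each of the 6 groups held 3 samples and each sample 1 array, so the small number of arrays limits the precision. All animals were male Sprague Dawley rats. Lesions arose in rats that drank water with 0.002% 4-nitroquinoline-1-oxide (4NQO), a carcinogen that forms bulky DNA adducts, for up to 22 weeks, and were taken between weeks 14 and 22; normal samples came from control rats on distilled water alone. No genetic change was introduced, and ages are not stated in the sources used here. The methods state that tissue of 3 rats was pooled for a sample, that dispase separated the epithelial layer, and that fibroblasts were digested from the connective tissue and harvested soon after they had attached to culture dishes. Whether each group's 3 pools were made from separate animals is not in the labels, so p-values rest on a spread among samples that may be partly technical.

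Mitosis is driven by Cdk1 with its cyclins, held at the spindle checkpoint until every kinetochore is attached, and released when the anaphase-promoting complex destroys securin and cyclin B. Most of these genes are transcribed in a burst in G2. By then the repressor complex DREAM has left their promoters and the MuvB core has joined B-Myb and FoxM1. In stratified oral epithelium division is normally confined to the basal and parabasal layers, and dysplasia is graded partly by mitoses found above them.

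That transcription programme acts through promoter elements, and 40 of the 46 measured genes had an entry in the RefSeq promoter table of build GRCr8, which holds 250 bases before and 50 bases after an annotated start. The cell cycle genes homology region (CHR), searched as TTTGAA on both strands, was present in 26 of the 40 promoters (65%), against 18.1% of all 27457 promoters and 12.3% of the 11700 promoters of genes on the array. CCAAT on both strands, the box bound by NF-Y, was present in 31 (77.5%), against 37.7% and 37.3%, and occurred 2 or more times in 52.5%, against 11.5% and 12.5%. Both motifs together were present in 22 (55%), against 7.25% and 5.03%. The E2F-type word TTCGCGC was found in 1, that of Cdk1 (2.5%), against 1.58% and 2.72%. The CHR variant TTTAAA was counted as a comparison for letter composition. It was present in 13 (32.5%), against 13.5% and 9.32%, so this comparison word too was more frequent than in either background. TTTAAA and TTTGAA differ in 1 base, so no match counts for both. Promoters of the 40 genes had a median GC content of 58%, those of genes on the array 60% and all promoters 52.3%.

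The promoter of the gene with the highest mean log2 signal among those with an entry in each functional group is printed 5′ to 3′ on the gene's strand, to show how CHR and CCAAT matches lie relative to each other in genes that moved and genes that did not. Capitals mark matches to the CHR, CCAAT and E2F-type words, a match on the opposite strand appearing as the reverse complement. The windows are chr5:63335901-63336200 (Melk, plus strand), chr17:13727470-13727769 (Cks2, minus strand), chr1:195760282-195760581 (Bub3, plus strand), chr10:28406277-28406576 (Pttg1, minus strand), chr13:84255549-84255848 (Nuf2, minus strand), chr15:23144127-23144426 (Dlgap5, minus strand), chr8:71320535-71320834 (Kif23, minus strand) and chr10:84473044-84473343 (Top2a, minus strand).
Melk: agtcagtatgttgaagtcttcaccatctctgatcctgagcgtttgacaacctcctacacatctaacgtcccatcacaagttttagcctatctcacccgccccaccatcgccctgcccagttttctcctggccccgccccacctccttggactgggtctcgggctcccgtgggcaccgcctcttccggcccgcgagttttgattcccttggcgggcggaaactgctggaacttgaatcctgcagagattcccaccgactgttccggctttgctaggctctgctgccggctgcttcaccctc
Cks2: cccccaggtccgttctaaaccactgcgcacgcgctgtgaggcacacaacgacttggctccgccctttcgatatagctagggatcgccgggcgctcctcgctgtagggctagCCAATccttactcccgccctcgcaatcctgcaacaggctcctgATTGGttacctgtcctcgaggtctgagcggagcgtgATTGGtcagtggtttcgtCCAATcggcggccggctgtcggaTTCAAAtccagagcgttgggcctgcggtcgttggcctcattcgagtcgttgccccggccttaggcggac
Bub3: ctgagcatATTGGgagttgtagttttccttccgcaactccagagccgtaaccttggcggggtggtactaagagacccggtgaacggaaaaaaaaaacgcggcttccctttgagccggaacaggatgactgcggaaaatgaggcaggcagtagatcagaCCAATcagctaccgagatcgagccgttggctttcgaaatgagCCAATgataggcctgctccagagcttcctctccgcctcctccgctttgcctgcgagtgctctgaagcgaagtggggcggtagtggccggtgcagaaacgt
Pttg1: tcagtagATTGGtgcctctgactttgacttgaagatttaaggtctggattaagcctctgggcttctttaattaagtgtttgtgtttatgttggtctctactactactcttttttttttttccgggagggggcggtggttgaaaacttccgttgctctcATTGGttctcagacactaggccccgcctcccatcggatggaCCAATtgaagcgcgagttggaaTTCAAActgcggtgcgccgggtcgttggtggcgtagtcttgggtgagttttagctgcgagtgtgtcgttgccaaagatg
Nuf2: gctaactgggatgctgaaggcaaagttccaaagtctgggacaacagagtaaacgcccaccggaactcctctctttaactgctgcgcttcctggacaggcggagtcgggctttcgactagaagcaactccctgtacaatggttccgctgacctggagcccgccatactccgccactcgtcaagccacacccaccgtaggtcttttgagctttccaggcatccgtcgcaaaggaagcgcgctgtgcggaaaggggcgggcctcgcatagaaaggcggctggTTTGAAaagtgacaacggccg
Dlgap5: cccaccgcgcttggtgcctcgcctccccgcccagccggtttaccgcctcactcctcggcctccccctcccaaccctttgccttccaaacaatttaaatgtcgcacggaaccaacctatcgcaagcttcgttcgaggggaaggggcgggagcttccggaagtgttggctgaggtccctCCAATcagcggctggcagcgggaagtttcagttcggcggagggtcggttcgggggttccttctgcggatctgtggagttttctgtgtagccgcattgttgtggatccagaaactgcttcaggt
Kif23: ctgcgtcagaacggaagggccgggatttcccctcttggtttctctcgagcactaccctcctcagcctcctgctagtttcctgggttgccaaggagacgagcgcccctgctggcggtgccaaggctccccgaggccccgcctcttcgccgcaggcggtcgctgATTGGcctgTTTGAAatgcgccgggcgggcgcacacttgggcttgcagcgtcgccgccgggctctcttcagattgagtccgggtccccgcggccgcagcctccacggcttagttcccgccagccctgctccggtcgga
Top2a: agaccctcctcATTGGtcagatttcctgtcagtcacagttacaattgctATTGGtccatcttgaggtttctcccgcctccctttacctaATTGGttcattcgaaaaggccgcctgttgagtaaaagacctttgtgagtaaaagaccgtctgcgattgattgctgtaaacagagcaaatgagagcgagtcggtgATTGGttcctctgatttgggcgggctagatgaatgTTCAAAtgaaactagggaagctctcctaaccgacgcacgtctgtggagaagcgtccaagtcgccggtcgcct
In Top2a, Pttg1 and Cks2 the CHR match lies within 30 bases upstream of the start and 1 or more CCAAT matches lie before it. Kif23 has both further upstream, and Nuf2 has a CHR match alone and downstream of the start. Of the marked words Bub3 and Dlgap5 have CCAAT alone, and Melk has none. Dlgap5 also has 1 TTTAAA match, which is not marked. Over the 40 promoters the 31 CHR matches had a median distance of -29 bases from the start, and the 70 CCAAT matches of -96 bases. A match is only an occurrence of letters.

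**Figure D1:**
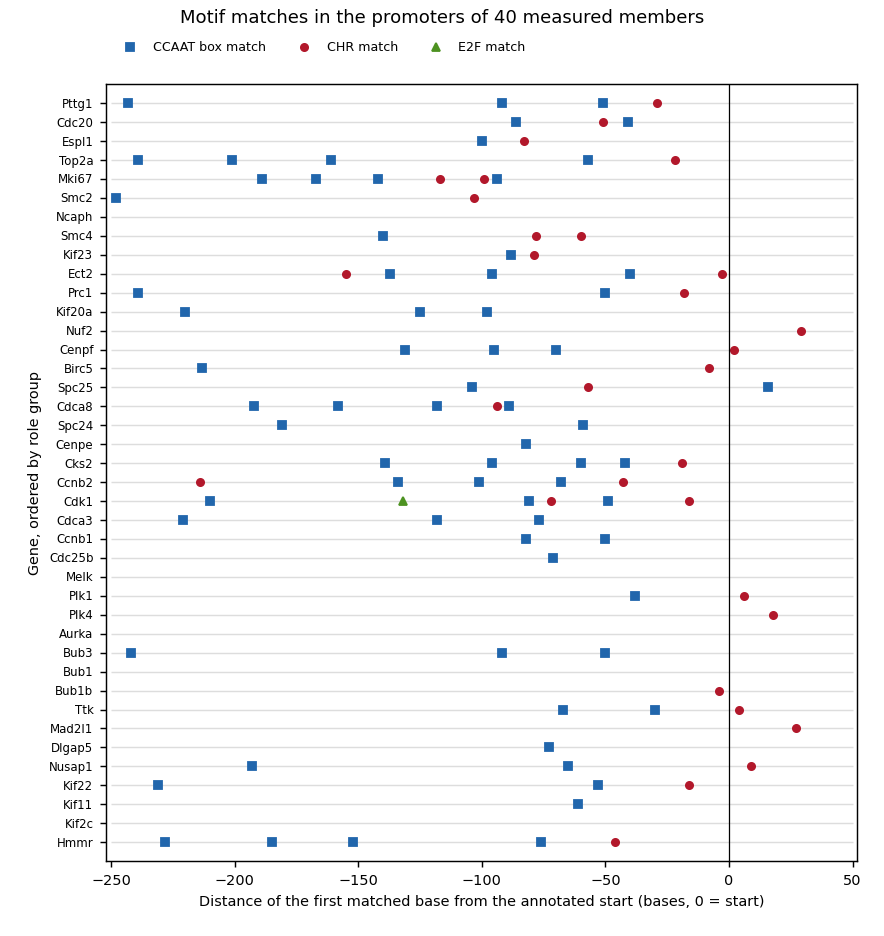
Motif matches in the promoters of 40 measured mitosis and spindle genes; the x axis is the distance in bases of the first matched base from the annotated start, with 0 at the start, and each row is a gene ordered by functional group. CHR matches (circles, 31 in all) gather close to the start and CCAAT matches (squares, 70 in all) lie mostly upstream of them.

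Before the results, 3 facts about the samples bear on them. A list of 14 epithelial markers such as keratins had mean log2 signals of 12.89 to 13.09 in the 9 epithelial samples but also 11.80 to 12.63 in the fibroblast samples other than the third normal one (10.55), so epithelial marker signal was present in the fibroblast samples. A list of 16 fibroblast markers such as collagens stood at 11.11 to 12.58 in fibroblasts and 6.14 to 7.76 in normal and dysplastic epithelia, and at 8.89, 10.94 and 7.20 in the 3 SCC epithelial samples. In fibroblasts, the third sample of dysplasia and the third of SCC had lower epithelial markers (11.92 and 11.80) than the others of their stage (12.49 to 12.63) and higher macrophage markers (10.56 against 8.73 and 8.64, and 11.51 against 9.91 and 9.95, 17 genes). No marker of these lists was at 0 in any sample.

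Most of the mitosis genes were higher in dysplastic than in normal epithelia, by a factor of 1.53 to 3.36 among those called. Of the 46, 32 rose and 0 fell (limma, adjusted p under 0.05 over all 31042 probe sets), where 2174 of all probe sets rose and 2342 fell, 14.5% in both directions together. The median log2 change of the 46 was 0.98, against -0.06 over all probe sets and -0.02 over all genes, and 43 of the 46 changes were above 0. Largest were Pbk, a kinase active in mitosis (3.36-fold), Mad2l1, which carries the checkpoint signal (2.96-fold), Spc25 (2.77-fold) and Spc24 (2.70-fold), of the Ndc80 kinetochore complex, and Hmmr, a spindle assembly factor (2.70-fold). In 41 of the 46 the 3 dysplasia samples all lay above the 3 normal ones, where 19.0% of all probe sets showed that. In RNA of a whole layer, more dividing cells and more of an RNA per dividing cell cannot be told apart.

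The call is not equally firm for every gene. Those of Cdca3, Dlgap5, Mki67 and Kif20a were lost in 10, 9, 8 and 7 of 17 alternatives. Each of these was lost whichever normal or dysplasia epithelial sample was left out. Plk4, Pbk, Cdk1, Mad2l1, Spc24 and Spc25 were called under every alternative tried, and 14 of the 32 whichever single sample was left out. The count fell to 18 without the second normal sample, 20 without the third, 18 without the first dysplasia sample and 15 without the third, and the methods' t-test after Benjamini-Hochberg adjustment called 6, always with 0 lower. The second normal sample was the lowest of all 9 epithelial samples for 40 of the 46 genes. The 6 markers of basal cells, the layer that divides, had means of 11.86 to 12.30 in normal and 12.38 to 12.53 in dysplastic epithelia, with 1 of 6 called higher. In the fibroblast samples the same 6 stood as high, at 11.14 to 12.42 in normal, 12.31 to 12.66 in dysplasia and 12.37 to 12.57 in SCC. Macrophage markers stood at 6.04 to 6.13 in normal and 6.46 to 7.16 in dysplastic epithelia, with 2 of 17 called higher, and neutrophil markers at 6.35 to 6.62 and 6.78 to 7.0, with 2 of 10 called higher and 1 lower. The part of these in the result was not tested.

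**Figure D2:**
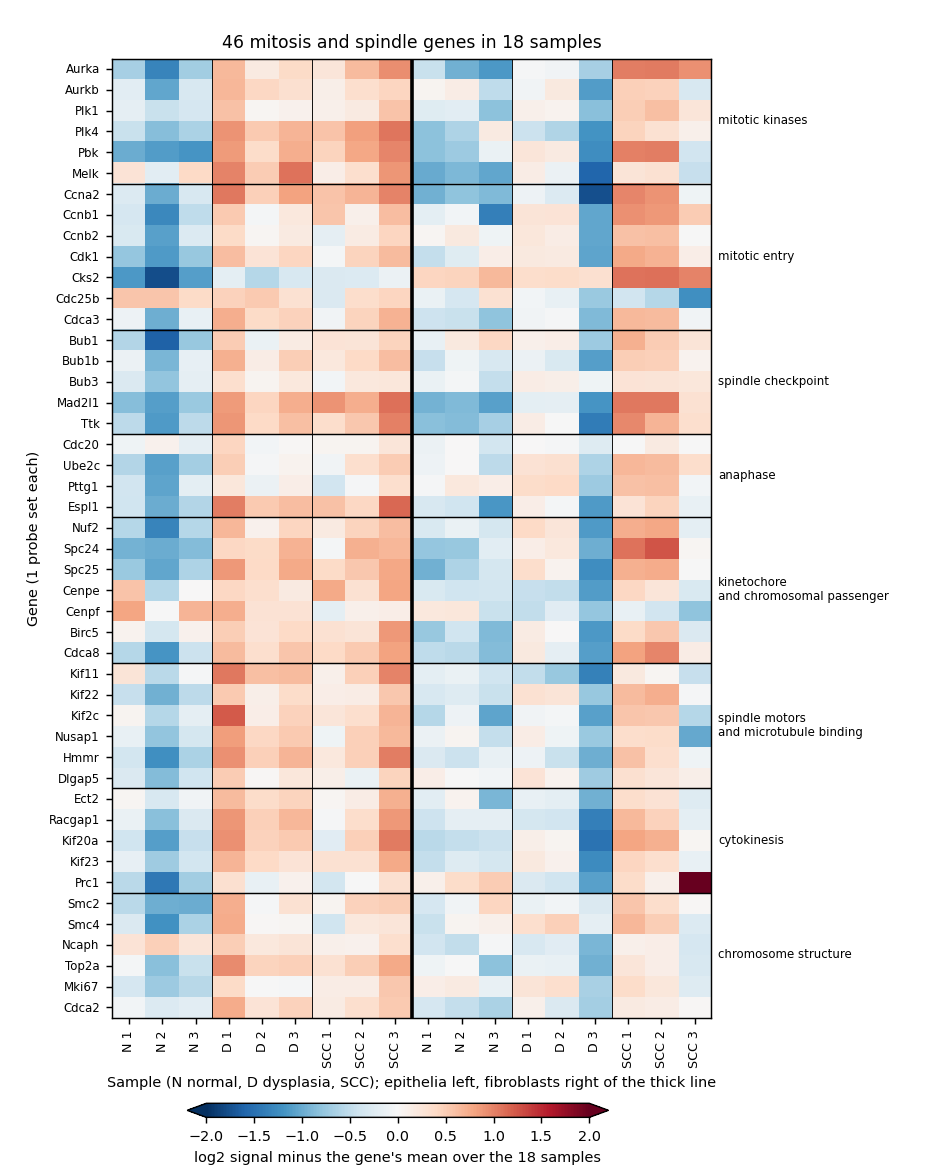
Each row is 1 of the 46 genes, each column 1 of the 18 samples, and the colour is the log2 signal minus the gene's mean over the 18 samples, with colours ending at 2 in either direction. Dysplastic and SCC epithelia are above normal epithelia in most rows, the third dysplasia fibroblast sample is below its 2 companions in all 46 rows, and Prc1 stands out in the third SCC fibroblast sample at 11.71.

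Of the 6 mitotic kinases measured, 4 rose in dysplastic epithelia: Pbk, Plk4, Aurka and Aurkb. Values below are log2 signals of samples 1, 2 and 3 of a group in that order, and changes are differences of group means on the log2 scale (n = 3 per group). Pbk in epithelia read 6.86, 6.73 and 6.67 in normal, 8.70, 8.22 and 8.58 in dysplasia and 8.29, 8.63 and 8.83 in SCC samples. Pbk in fibroblasts read 7.02, 7.12 and 7.72 in normal, 8.09, 8.03 and 6.61 in dysplasia and 8.86, 8.88 and 7.46 in SCC samples. Normal epithelia were uniformly low and every lesion sample of epithelia lay above them, by 1.75 ± 0.17 (SE, adjusted p = 0.0019) for dysplasia on the log2 scale. Plk4 in epithelia read 7.28, 6.89 and 7.10 in normal, 8.63, 8.26 and 8.42 in dysplasia and 8.30, 8.56 and 8.81 in SCC samples. For Plk4, which starts centriole duplication, the 6 lesion samples of epithelia again lay above the normal ones, with a change of 1.34 ± 0.17 (SE, adjusted p = 0.00314) to dysplasia. Plk4 in fibroblasts read 6.91, 7.12 and 7.91 in normal, 7.30, 7.13 and 6.54 in dysplasia and 8.19, 8.04 and 7.84 in SCC samples. In fibroblasts Plk4 overlapped between normal and dysplasia.

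Aurka in epithelia read 6.76, 6.11 and 6.73 in normal, 8.08, 7.61 and 7.81 in dysplasia and 7.67, 8.05 and 8.36 in SCC samples. Aurka in fibroblasts read 6.98, 6.47 and 6.27 in normal, 7.41, 7.35 and 6.77 in dysplasia and 8.45, 8.47 and 8.34 in SCC samples. Aurka, the spindle pole kinase, rose in dysplastic epithelia by 1.30 ± 0.23 (SE, adjusted p = 0.00944) and had the largest change from normal to SCC in fibroblasts, where the 3 SCC samples lay above the other 6. Aurkb in epithelia read 9.20, 8.36 and 9.08 in normal, 10.06, 9.82 and 9.72 in dysplasia and 9.53, 9.74 and 9.84 in SCC samples. Aurkb in fibroblasts read 9.45, 9.55 and 8.89 in normal, 9.33, 9.61 and 8.28 in dysplasia and 9.88, 9.86 and 9.09 in SCC samples. Aurkb, the kinase of the chromosomal passenger complex, rose in dysplastic epithelia by 0.99 ± 0.22 (SE, adjusted p = 0.0194) and overlapped between all stages in fibroblasts. Plk1, which acts at centrosomes, kinetochores and the midzone, was not called in dysplasia (0.56 ± 0.18 SE, adjusted p = 0.0704) but rose in SCC against normal epithelia by 0.61 ± 0.18 (SE, adjusted p = 0.0344). Melk in epithelia read 9.29, 8.80 and 9.42 in normal, 10.00, 9.52 and 10.10 in dysplasia and 9.15, 9.35 and 9.89 in SCC samples. Melk in fibroblasts read 8.01, 8.12 and 7.98 in normal, 9.17, 8.90 and 7.42 in dysplasia and 9.27, 9.32 and 8.56 in SCC samples. Melk, a kinase whose level follows the cell cycle, had a change of 0.70 ± 0.24 (SE, adjusted p = 0.0864) in dysplastic epithelia, with all 3 dysplasia samples above the normal ones, and did not pass.

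In the group that drives mitotic entry, 5 of 7 rose in dysplastic epithelia: Cdk1, Ccna2, Cks2, Ccnb1 and Cdca3, a factor in the destruction of the Cdk1 inhibitor Wee1. Cdk1, the kinase itself, rose by 1.33 ± 0.19 (SE, adjusted p = 0.0046) and Ccnb1, cyclin B1, by 0.94 ± 0.26 (SE, adjusted p = 0.0451). The call of Ccnb1 was lost without 8 of the 9 samples in turn, and its other probe set gave 0.35 ± 0.21 (SE, adjusted p = 0.299), not called. Ccna2 in epithelia read 8.72, 8.0 and 8.67 in normal, 10.05, 9.47 and 9.80 in dysplasia and 9.56, 9.67 and 9.98 in SCC samples. Ccna2 in fibroblasts read 8.04, 8.19 and 8.11 in normal, 8.89, 8.71 and 7.24 in dysplasia and 9.97, 9.90 and 8.90 in SCC samples. Ccna2, cyclin A2, moved up in every lesion sample of epithelia, and in fibroblasts the third dysplasia sample had its lowest value. Cks2 in epithelia read 10.16, 9.54 and 10.21 in normal, 11.11, 10.74 and 11.00 in dysplasia and 11.02, 11.04 and 11.19 in SCC samples. Cks2 in fibroblasts read 11.73, 11.76 and 11.96 in normal, 11.67, 11.67 and 11.63 in dysplasia and 12.40, 12.41 and 12.31 in SCC samples. Cks2, a small subunit bound to Cdk1, was brighter in every fibroblast sample than in any epithelial one, and rose within epithelia by 0.98 ± 0.19 (SE, adjusted p = 0.0123).

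Ccnb2 in epithelia read 10.17, 9.39 and 10.20 in normal, 10.87, 10.53 and 10.66 in dysplasia and 10.30, 10.66 and 10.92 in SCC samples. Ccnb2 in fibroblasts read 10.53, 10.67 and 10.40 in normal, 10.71, 10.64 and 9.44 in dysplasia and 11.07, 11.08 and 10.47 in SCC samples. Ccnb2, the second B-type cyclin, did not pass in dysplastic epithelia (0.76 ± 0.24 SE, adjusted p = 0.0645), although its 3 dysplasia samples lay above the normal ones. Cdc25b in epithelia read 9.77, 9.77 and 9.59 in normal, 9.66, 9.73 and 9.52 in dysplasia and 8.91, 9.57 and 9.65 in SCC samples. Cdc25b in fibroblasts read 9.08, 8.87 and 9.51 in normal, 9.15, 9.05 and 8.47 in dysplasia and 8.83, 8.63 and 7.97 in SCC samples. Cdc25b, a phosphatase that activates Cdk1, was 1 of 3 genes, with Cenpf and Ncaph, whose estimate lay below 0, with a change of -0.07 ± 0.19 (SE, adjusted p = 0.839) to dysplasia and overlapping samples in epithelia. In fibroblasts its 3 SCC samples lay below the 3 normal ones, with -0.68 ± 0.28 (SE, adjusted p = 0.122) by limma, which did not pass.

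All 5 measured spindle checkpoint genes rose in dysplastic epithelia, although the calls of Bub3 and Bub1b were lost under most alternatives, 12 of 18 and 10 of 17. Mad2l1 in epithelia read 7.33, 7.07 and 7.43 in normal, 9.02, 8.61 and 8.90 in dysplasia and 9.07, 8.90 and 9.28 in SCC samples. Mad2l1 in fibroblasts read 7.23, 7.29 and 7.08 in normal, 7.98, 7.99 and 6.99 in dysplasia and 9.23, 9.23 and 8.48 in SCC samples. Mad2l1 rose by 1.57 ± 0.16 (SE, adjusted p = 0.00198), with no overlap between normal and lesion samples of epithelia. Ttk in epithelia read 7.66, 7.04 and 7.66 in normal, 9.06, 8.57 and 8.78 in dysplasia and 8.53, 8.72 and 9.19 in SCC samples. Ttk in fibroblasts read 7.34, 7.31 and 7.51 in normal, 8.33, 8.17 and 6.78 in dysplasia and 9.14, 8.86 and 8.52 in SCC samples. Ttk, the kinase that starts the checkpoint signal, rose by 1.35 ± 0.23 (SE, adjusted p = 0.00776), a call that its other probe set did not share. Bub1 in epithelia read 8.51, 7.48 and 8.33 in normal, 9.60, 8.95 and 9.26 in dysplasia and 9.37, 9.35 and 9.53 in SCC samples. Bub1 in fibroblasts read 8.94, 9.28 and 9.51 in normal, 9.19, 9.22 and 8.37 in dysplasia and 9.81, 9.60 and 9.34 in SCC samples. Bub1, a checkpoint kinase at kinetochores, rose by 1.16 ± 0.26 (SE, adjusted p = 0.0227) in epithelia, while its dysplasia fibroblasts overlapped the normal ones.

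Bub3 in epithelia read 10.45, 9.96 and 10.56 in normal, 11.07, 10.79 and 10.95 in dysplasia and 10.69, 10.95 and 10.96 in SCC samples. Bub3 in fibroblasts read 10.60, 10.71 and 10.26 in normal, 10.90, 10.86 and 10.65 in dysplasia and 11.01, 11.00 and 10.97 in SCC samples. Bub3, the partner that brings Bub1 to kinetochores, had the smallest change among called genes, 0.61 ± 0.17 (SE, adjusted p = 0.0442), and a further probe set of Bub3 gave 0.29 ± 0.11 (SE, adjusted p = 0.108), not called. Bub1b, the checkpoint protein BubR1, rose by 0.85 ± 0.24 (SE, adjusted p = 0.0433).

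Among the 4 anaphase genes, Espl1 and Ube2c rose in dysplastic epithelia. Espl1, the protease separase that cuts cohesin, rose by 1.38 ± 0.23 (SE, adjusted p = 0.00761). Ube2c in epithelia read 10.09, 9.58 and 9.98 in normal, 11.16, 10.64 and 10.74 in dysplasia and 10.60, 11.00 and 11.18 in SCC samples. Ube2c in fibroblasts read 10.57, 10.68 and 10.15 in normal, 10.96, 10.99 and 10.05 in dysplasia and 11.33, 11.29 and 11.01 in SCC samples. Ube2c, the ubiquitin-conjugating enzyme of the anaphase-promoting complex, rose by 0.96 ± 0.21 (SE, adjusted p = 0.0178) with no overlap between normal and lesion epithelia. Pttg1 in epithelia read 9.47, 8.80 and 9.66 in normal, 10.08, 9.73 and 9.98 in dysplasia and 9.47, 9.83 and 10.20 in SCC samples. Pttg1 in fibroblasts read 9.83, 10.06 and 9.98 in normal, 10.22, 10.26 and 9.13 in dysplasia and 10.45, 10.46 and 9.80 in SCC samples. Pttg1, securin, was higher in the 3 dysplasia samples than in the normal ones without passing (0.62 ± 0.25 SE, adjusted p = 0.128). Cdc20, which activates the complex, had 0.20 ± 0.15 (SE, adjusted p = 0.404) with the probe set used. Of its 4 further probe sets, 2 were called, with changes of 0.92 ± 0.19 (SE, adjusted p = 0.0173) and 1.54 ± 0.22 (SE, adjusted p = 0.00473), and 2 were not, so the absence of a call for Cdc20 depends on the probe set.

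The kinetochore and chromosomal passenger genes split. Spc25, Spc24 and Nuf2, all subunits of the Ndc80 complex that holds microtubules, and Cdca8, the passenger subunit borealin, rose in dysplastic epithelia. Spc25 in epithelia read 7.98, 7.69 and 8.12 in normal, 9.59, 9.12 and 9.48 in dysplasia and 9.10, 9.26 and 9.51 in SCC samples. Spc25 in fibroblasts read 7.77, 8.11 and 8.38 in normal, 9.07, 8.80 and 7.49 in dysplasia and 9.44, 9.47 and 8.72 in SCC samples. Spc24 in epithelia read 6.59, 6.53 and 6.67 in normal, 7.95, 7.91 and 8.22 in dysplasia and 7.49, 8.25 and 8.19 in SCC samples. Both Ndc80 subunits separated normal from lesion epithelia without overlap, with changes to dysplasia of 1.47 ± 0.17 (SE, adjusted p = 0.00271) for Spc25 and 1.43 ± 0.20 (SE, adjusted p = 0.00416) for Spc24. Spc24 in fibroblasts read 6.76, 6.77 and 7.31 in normal, 7.66, 7.73 and 6.55 in dysplasia and 8.62, 8.78 and 7.56 in SCC samples. In fibroblasts both were highest in the first and second SCC samples.

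Nuf2 in epithelia read 8.46, 7.71 and 8.45 in normal, 9.69, 9.11 and 9.46 in dysplasia and 9.21, 9.47 and 9.65 in SCC samples. Nuf2 in fibroblasts read 8.71, 8.89 and 8.67 in normal, 9.42, 9.26 and 7.89 in dysplasia and 9.75, 9.79 and 8.83 in SCC samples. Nuf2 rose by 1.21 ± 0.23 (SE, adjusted p = 0.0125), and Cdca8 by 1.23 ± 0.20 (SE, adjusted p = 0.00698). Birc5, the passenger protein survivin, had 0.45 ± 0.19 (SE, adjusted p = 0.143), and Cenpe, a kinetochore motor, 0.30 ± 0.26 (SE, adjusted p = 0.472), and neither passed. Cenpf in epithelia read 9.60, 8.81 and 9.50 in normal, 9.54, 9.11 and 9.11 in dysplasia and 8.62, 8.92 and 8.95 in SCC samples. Cenpf in fibroblasts read 9.02, 9.04 and 8.36 in normal, 8.32, 8.59 and 8.05 in dysplasia and 8.67, 8.44 and 8.02 in SCC samples. Cenpf, a large kinetochore protein that peaks in G2, had a change of -0.05 ± 0.22 (SE, adjusted p = 0.899) to dysplasia, and its normal samples overlapped those of both lesion stages. Its 3 SCC samples lay below its 3 dysplasia samples in epithelia, with a change of -0.42 ± 0.22 (SE, adjusted p = 0.427) that did not pass. It was the 1 gene of the 46 without overlap in that comparison. Of all probe sets, 11.1% lay lower and 7.18% higher without overlap there, so this is not read as particular to Cenpf.

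Of the 6 spindle motors and microtubule-binding genes, 4 rose in dysplastic epithelia: Hmmr, Nusap1, Kif22 and Dlgap5. Hmmr in epithelia read 6.46, 5.59 and 6.19 in normal, 7.74, 7.30 and 7.50 in dysplasia and 7.03, 7.29 and 7.84 in SCC samples. Hmmr in fibroblasts read 6.52, 6.39 and 6.67 in normal, 6.72, 6.37 and 5.84 in dysplasia and 7.41, 7.15 and 6.73 in SCC samples. Hmmr rose by 1.43 ± 0.26 (SE, adjusted p = 0.0105), from a low level in the second normal sample. Nusap1 in epithelia read 8.82, 8.18 and 8.62 in normal, 9.81, 9.38 and 9.49 in dysplasia and 8.89, 9.45 and 9.61 in SCC samples. Nusap1 in fibroblasts read 8.85, 9.02 and 8.48 in normal, 9.11, 8.88 and 8.22 in dysplasia and 9.32, 9.34 and 7.95 in SCC samples. Nusap1, which bundles spindle microtubules, rose by 1.02 ± 0.23 (SE, adjusted p = 0.0219); its other probe set was not called. Dlgap5 in epithelia read 8.90, 8.32 and 8.80 in normal, 9.69, 9.21 and 9.42 in dysplasia and 9.30, 9.05 and 9.63 in SCC samples. Dlgap5 in fibroblasts read 9.33, 9.18 and 9.13 in normal, 9.47, 9.27 and 8.47 in dysplasia and 9.51, 9.43 and 9.31 in SCC samples. Dlgap5, a microtubule stabilizer near chromosomes, rose by 0.77 ± 0.21 (SE, adjusted p = 0.0402).

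Kif11 in epithelia read 8.08, 7.29 and 7.80 in normal, 8.88, 8.44 and 8.46 in dysplasia and 7.93, 8.30 and 8.83 in SCC samples. Kif11 in fibroblasts read 7.64, 7.69 and 7.43 in normal, 7.34, 7.06 and 6.48 in dysplasia and 8.03, 7.87 and 7.36 in SCC samples. Kif11, the motor that pushes the spindle poles apart, was higher in the 3 dysplasia than in the 3 normal epithelial samples but missed the threshold (0.86 ± 0.27 SE, adjusted p = 0.06), while its 3 dysplasia fibroblasts lay below the 3 normal ones. Kif2c, a microtubule depolymerase, also missed it (0.84 ± 0.28 SE, adjusted p = 0.0735), although a further probe set was called with 0.41 ± 0.10 (SE, adjusted p = 0.0315). Kif22, a motor on chromosome arms, rose by 0.99 ± 0.18 (SE, adjusted p = 0.0103).

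In cytokinesis, Kif20a, Racgap1, Prc1 and Kif23 rose in dysplastic epithelia, by 1.29, 1.10, 0.97 and 0.86 on the log2 scale. Kif23 in epithelia read 9.74, 9.20 and 9.55 in normal, 10.58, 10.30 and 10.18 in dysplasia and 10.21, 10.22 and 10.67 in SCC samples. Kif23 in fibroblasts read 9.43, 9.65 and 9.56 in normal, 10.10, 9.99 and 8.65 in dysplasia and 10.34, 10.25 and 9.76 in SCC samples. Racgap1 in epithelia read 9.24, 8.54 and 9.08 in normal, 10.26, 9.85 and 10.05 in dysplasia and 9.36, 9.74 and 10.25 in SCC samples. Kif23 and Racgap1 form centralspindlin, which sets the division plane, and both separated normal from dysplastic epithelia. Racgap1 in fibroblasts read 8.97, 9.20 and 9.21 in normal, 9.02, 9.0 and 8.01 in dysplasia and 10.03, 9.85 and 9.18 in SCC samples. Prc1 in epithelia read 8.38, 7.49 and 8.23 in normal, 9.24, 8.77 and 9.01 in dysplasia and 8.56, 8.93 and 9.24 in SCC samples. Prc1 in fibroblasts read 9.03, 9.30 and 9.43 in normal, 8.64, 8.52 and 7.85 in dysplasia and 9.29, 9.03 and 11.71 in SCC samples. Prc1, which bundles the central spindle, read 11.71 in the third SCC fibroblast sample, the highest Prc1 value of all 18, in a sample that was the lowest of its group for 45 of the 46 genes. Ect2 in epithelia read 9.71, 9.36 and 9.60 in normal, 10.32, 10.04 and 10.13 in dysplasia and 9.72, 9.83 and 10.40 in SCC samples. Ect2 in fibroblasts read 9.47, 9.74 and 8.76 in normal, 9.54, 9.48 and 8.72 in dysplasia and 10.03, 9.97 and 9.43 in SCC samples. Ect2, the exchange factor that activates RhoA at the midzone, did not pass (0.61 ± 0.19 SE, adjusted p = 0.0608), with dysplasia samples all above normal ones.

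Of the chromosome structure genes, Smc2, Top2a, Cdca2 and Mki67 rose in dysplastic epithelia, by 1.17, 1.06, 0.67 and 0.66. Top2a in epithelia read 10.09, 9.30 and 9.68 in normal, 11.08, 10.57 and 10.61 in dysplasia and 10.44, 10.63 and 10.89 in SCC samples. Top2a in fibroblasts read 10.04, 10.13 and 9.32 in normal, 10.00, 9.99 and 9.17 in dysplasia and 10.38, 10.26 and 9.82 in SCC samples. Top2a, topoisomerase II alpha, separated normal from lesion epithelia. Mki67 in epithelia read 9.55, 9.17 and 9.33 in normal, 10.27, 9.89 and 9.86 in dysplasia and 10.03, 10.04 and 10.42 in SCC samples. Mki67 in fibroblasts read 10.02, 10.07 and 9.73 in normal, 10.15, 10.22 and 9.24 in dysplasia and 10.25, 10.12 and 9.62 in SCC samples. Mki67, the Ki-67 antigen used to count cycling cells, had a change of 1.58-fold in dysplasia, below the median of the 46. Smc2 in epithelia read 8.54, 8.10 and 8.08 in normal, 9.79, 9.05 and 9.38 in dysplasia and 9.13, 9.53 and 9.57 in SCC samples. Smc2 in fibroblasts read 8.74, 9.0 and 9.50 in normal, 8.94, 9.02 and 8.79 in dysplasia and 9.63, 9.43 and 9.09 in SCC samples. Smc2, a condensin core subunit, rose in epithelia, and its partner Smc4 had a similar estimate that narrowly missed the threshold (0.98 ± 0.29 SE, adjusted p = 0.0536). Ncaph, the condensin I subunit, had -0.01 ± 0.13 (SE, adjusted p = 0.97). Cdca2, which brings a phosphatase to chromatin, stood at 6.19 to 6.41 in normal and 6.74 to 7.21 in dysplastic epithelia.

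**Figure D3:**
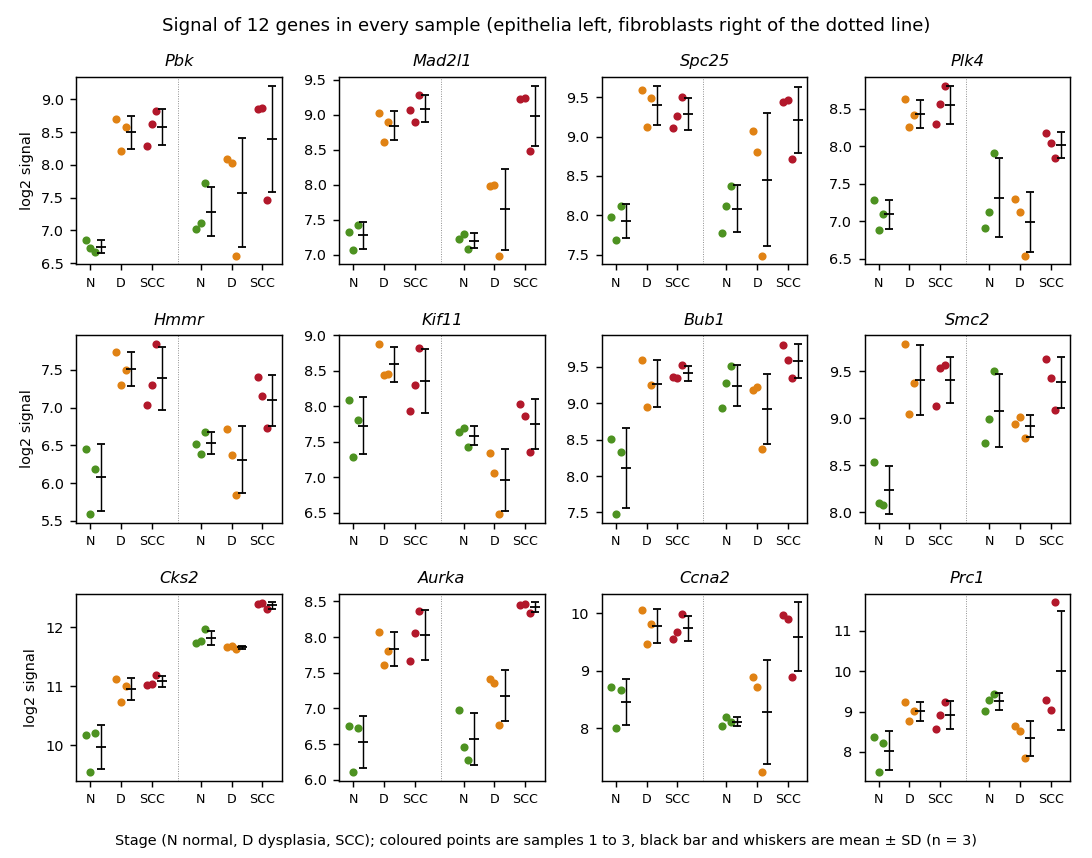
Log2 signal of 12 of the genes in each sample; the x axis gives the stage, epithelia left and fibroblasts right, points are the 3 samples of a group and black bars the mean ± SD. In epithelia the normal samples lie below the dysplasia samples for all 12 genes, and in fibroblasts the third dysplasia sample is below the other 2 of its group for all 12.

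From dysplasia to SCC, no mitosis gene passed the test in epithelia. Of the 46, limma called 0, with 0 at an unadjusted p under 0.05 and 0 by the methods' t-test, where 0.0258% of all probe sets were called. Changes ran from -0.42 (Cenpf) to 0.31 (Cenpe) around a median of -0.06, against -0.03 over all probe sets. The 95% confidence intervals of the 46 differences lay between -0.96 and 0.90, so none reached a log2 change of 1. Within SCC the third sample was above both others for 45 of the 46 genes and the first below both for 37. The same 3 samples differed in fibroblast markers, where the third was lowest (7.20), and the part of that was not tested.

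Most of the mitosis genes were also higher in SCC than in normal epithelia, in a comparison that shares its normal samples with that of dysplasia. Of the 46, 32 rose and 0 fell, where 12.6% of all probe sets rose and 17.3% fell, with a median change of 0.85 against -0.09 over all probe sets. Pbk rose by 1.83 ± 0.17 (SE, adjusted p = 0.000271), Mad2l1 by 1.81 ± 0.16 (SE, adjusted p = 0.000205), Aurka by 1.50 ± 0.23 (SE, adjusted p = 0.00217), Plk4 by 1.46 ± 0.17 (SE, adjusted p = 0.000584) and Spc24 by 1.38 ± 0.20 (SE, adjusted p = 0.00154). Cdca3 (0.77 ± 0.27 SE, adjusted p = 0.0587) was not called here. Calls numbered 22 to 33 with a sample left out and 9 by the methods' t-test. Macrophage markers rose in the same comparison for 12 of 17 genes, from 6.04 to 6.13 in normal to 7.08 to 9.36 in SCC epithelia, and 3 of 16 fibroblast markers rose; their part was not tested.

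In fibroblasts no change from normal to dysplasia passed for any of the 46 genes. Limma called 0, as did the methods' t-test, with 1 higher (Aurka, 0.60 ± 0.22 SE, adjusted p = 0.221) and 1 lower (Kif11, -0.62 ± 0.25 SE, adjusted p = 0.238) at an unadjusted p under 0.05, where 0.171% of all probe sets were called. The median change was 0.04 as deposited, 0.07 after quantile normalization and -0.07 with arrays aligned on the spike-in controls, which shifted every probe set by -0.11, and 24 of the 46 were above 0 as deposited. The 95% confidence intervals were wide, reaching down to -2.28 for Prc1 and up to 1.39 for Melk, so a change of the size seen in epithelia could not be told from no change in such genes. The spread in this fit is shared with the SCC fibroblasts, where Prc1 read 11.71 in the third sample. Its dysplasia samples (7.85 to 8.64) all lay below its normal ones (9.03 to 9.43). That held for 4 of the 46 genes, where 13.3% of all probe sets did so.

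The third dysplasia fibroblast sample was below both others for all 46 genes, by 0.04 to 1.61 on the log2 scale, and the lowest of all 9 fibroblast samples for 36. With the third sample of every fibroblast stage left out, an alternative chosen after the values were seen, limma called 18 higher and 3 lower. The share of all probe sets called in that fit is not given here, so this count is not read as particular to these genes. The third dysplasia fibroblast sample also had the lower epithelial and higher macrophage markers given above, and the part of these was not tested.

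**Figure D4:**
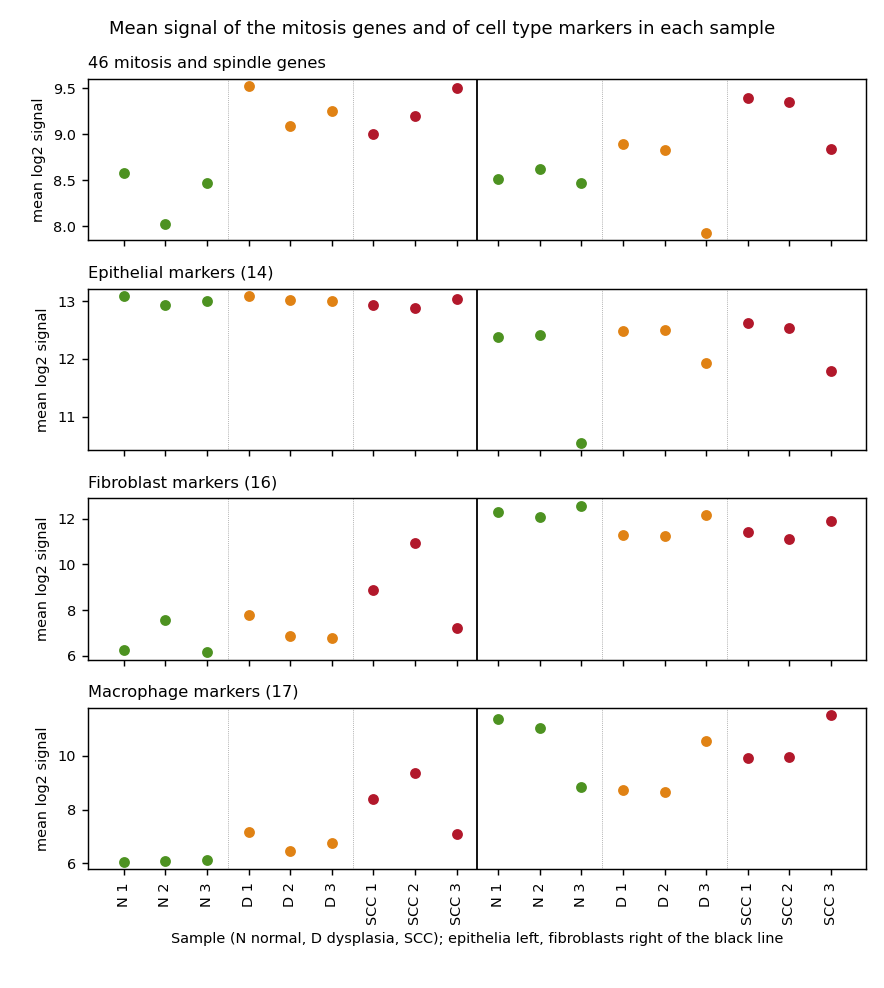
Mean log2 signal per sample of the 46 mitosis genes (top) and of 14 epithelial, 16 fibroblast and 17 macrophage markers, for 9 epithelial samples (left) and 9 fibroblast samples (right). The mitosis genes are at 8.02 to 8.58 in normal and 9.0 to 9.52 in lesion epithelia, and the third dysplasia fibroblast sample is lowest at 7.93.

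**Figure D5:**
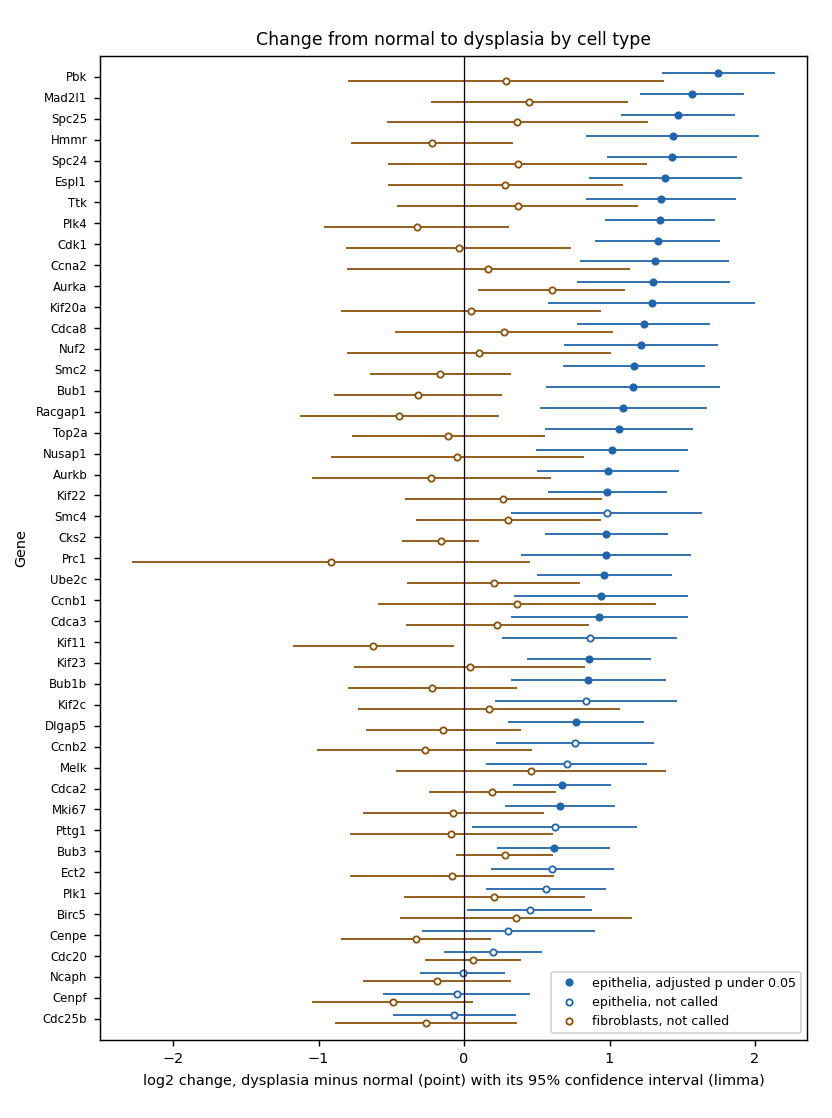
Log2 change from normal to dysplasia of the 46 genes (points) with 95% confidence intervals from limma, epithelia in blue and fibroblasts in brown; filled points have an adjusted p under 0.05. The 32 filled points are all in epithelia, and most fibroblast intervals are wider than the epithelial ones and include 0.

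SCC fibroblasts had higher signals of the mitosis genes than dysplasia fibroblasts for 45 of 46 genes, but only Aurka and Cks2 passed. Aurka rose by 1.24 ± 0.22 (SE, adjusted p = 0.0303) and Cks2 by 0.71 ± 0.12 (SE, adjusted p = 0.0211), where 1.52% of all probe sets rose. The median change was 0.61, against -0.01 over all probe sets, and 18 genes were higher at an unadjusted p under 0.05. The share of all probe sets at that unadjusted cut is not given here, so the 18 are not read as particular to these genes. Same-numbered dysplasia and SCC fibroblast samples correlated over probe sets at 0.321 to 0.592, and differently numbered ones at -0.527 to 0.352. With the replicate number as a block, which is not known to pair the samples, limma called 6 higher and 0 lower. Neither call held with each sample left out: Aurka was lost without normal sample 2, any dysplasia sample or SCC sample 1 or 2, Cks2 without dysplasia or SCC sample 1 or 2, and the counts ran from 0 to 4. The log2 signal of the 3' beta-actin control minus that of the 5' one, a sign of RNA integrity, was 1.14 to 1.26 in SCC and 1.59 to 2.0 in dysplasia fibroblasts, and neutrophil markers stood at 9.25 to 9.32 against 7.93 to 8.20; their part was not tested.

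Against normal fibroblasts, in a comparison that shares its SCC samples with the one before, SCC fibroblasts had 8 of the 46 genes higher and 0 lower, where 7.82% of all probe sets rose and 7.43% fell. Aurka rose by 1.85 ± 0.22 (SE, adjusted p = 0.00254), Mad2l1 by 1.78 ± 0.30 (SE, adjusted p = 0.00914), Ccna2 by 1.48 ± 0.43 (SE, adjusted p = 0.0495), Ttk by 1.45 ± 0.37 (SE, adjusted p = 0.0322) and Spc24 by 1.37 ± 0.39 (SE, adjusted p = 0.0471). Cdca8, Cdca3 and Cks2 completed the list, with changes of 1.28, 0.96 and 0.55. The call of Ttk was not shared by its other probe set. The median change was 0.61 against -0.05 over all probe sets, with 44 of 46 above 0, and in 22 the SCC samples all lay above the normal ones, where 17.8% of all probe sets did. Aurka was called under every alternative, and the replicate block raised the count to 19, and that of all probe sets from 4733 to 7405. Without a single sample it was 2 (normal 1, normal 2, SCC 1 or SCC 2 left out), 4 (normal 3 or dysplasia 2), 6 (dysplasia 1), 10 (SCC 3) or 18 (dysplasia 3). Neutrophil markers rose for 8 of 10 genes, from 6.99 to 7.30 in normal to 9.25 to 9.32 in SCC fibroblasts. Fibroblast markers were at 12.09 to 12.58 in normal and 11.11 to 11.92 in SCC fibroblasts, and the 3' minus 5' beta-actin difference at 1.51 to 2.02 and 1.14 to 1.26. The part of these in the result was not tested.

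The test of the difference between cell types asked whether the step from normal to dysplasia was larger in epithelia than in fibroblasts. All 46 differences were above 0, with a median of 0.97 against -0.03 over all probe sets, and 6 passed: Plk4, Hmmr, Kif11, Bub1, Smc2 and Cks2, where 1.93% of all probe sets were called in that direction. Plk4 differed by 1.67 ± 0.34 (SE, adjusted p = 0.0157), Hmmr by 1.65 ± 0.38 (SE, adjusted p = 0.0266), Kif11 by 1.49 ± 0.38 (SE, adjusted p = 0.0399), Bub1 by 1.48 ± 0.39 (SE, adjusted p = 0.0446), Smc2 by 1.33 ± 0.32 (SE, adjusted p = 0.0307) and Cks2 by 1.14 ± 0.22 (SE, adjusted p = 0.0116). In each of the 6 the estimate in epithelia was above 0 and that in fibroblasts below it, from -0.62 for Kif11 to -0.16 for Cks2. The other probe sets of Kif11 and Hmmr gave differences of 0.84 ± 0.37 (SE, adjusted p = 0.207) and 1.04 ± 0.30 (SE, adjusted p = 0.0619), neither called. Plk4 and Cks2 were called whichever sample was left out, the count was 2 without normal epithelial sample 2 or 3, dysplasia epithelial sample 1 or 3 or dysplasia fibroblast sample 2, and with arrays aligned on the spike-in controls it was 0.

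For the step from dysplasia to SCC most differences lay below 0, with a median of -0.65 against -0.03 over all probe sets and 44 of 46 below 0. Limma called 0, where 0.651% of all probe sets were called, with 16 lower at an unadjusted p under 0.05. The alignment on the spike-in controls, which lowered every such difference by 0.81, called 40 lower, along with 12297 of all 31042 probe sets in either direction. Over the whole course from normal to SCC the median difference was 0.21, and -0.34 with that alignment. Limma called 0 there, where 16.5% of all probe sets were called, with 5 higher at an unadjusted p under 0.05. The share of all probe sets at the unadjusted cut is not given for either comparison. The 16 and the 5 are therefore not read as particular to these genes.

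Epithelia were also set against fibroblasts within each stage. In normal tissue 2 of the 46 genes were higher in epithelia, Melk and Ncaph, and 6 were lower, Cks2, Prc1, Bub1, Smc2, Cdk1 and Mki67, where 35.7% of all probe sets were higher in epithelia and 27.7% lower. Cks2 was lower by the most (-1.85 ± 0.16 SE, adjusted p = 1.07e-07), Prc1 had -1.22 ± 0.50 (SE, adjusted p = 0.0446), Bub1 -1.14 ± 0.27 (SE, adjusted p = 0.00211) and Smc2 -0.84 ± 0.22 (SE, adjusted p = 0.00425), and Melk was higher by 1.13 ± 0.36 (SE, adjusted p = 0.0129). The median was -0.16 as deposited, 0.02 after quantile normalization and 0.69 with spike-in alignment, which shifted every probe set by 0.86. Without dysplasia fibroblast sample 3 the count was 14 and without normal fibroblast sample 2 it was 5, and the calls of Cdk1 and Prc1 were each lost on leaving out 12 of the 18 samples in turn.

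In dysplasia 25 were higher in epithelia and 1, Cks2, lower, where 27.4% of all probe sets were higher and 23.0% lower. Kif11 (1.63 ± 0.27 SE, adjusted p = 0.000143), Ccna2 (1.49 ± 0.37 SE, adjusted p = 0.00339), Plk4 (1.45 ± 0.24 SE, adjusted p = 0.000162), Melk (1.37 ± 0.36 SE, adjusted p = 0.00525) and Racgap1 (1.37 ± 0.30 SE, adjusted p = 0.00128) differed most. Without the third dysplasia fibroblast sample 13 were higher and 1 lower, and without the first dysplasia epithelial sample 14 and 1. In SCC Cdc25b was higher in epithelia (0.90 ± 0.25 SE, adjusted p = 0.0101) and Cks2 lower (-1.29 ± 0.16 SE, adjusted p = 1.65e-05), where 18.1% of all probe sets were higher and 20.1% lower, and the median of the 46 was 0.07. The epithelial marker signal of the fibroblast samples, 10.55 to 12.63, stands beside all these differences between cell types. So does their signal of the 6 basal cell markers, 11.14 to 12.66, against 11.86 to 12.54 in the epithelial samples. The part of either was not tested.

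Genes of 4 related lists were tested in the same way in dysplastic epithelia. DNA replication genes rose for 32 of 42, led by the helicase subunit Mcm6 (1.76 ± 0.20 SE, adjusted p = 0.00259), the origin protein Orc1 (1.73 ± 0.21 SE, adjusted p = 0.00289), Uhrf1, which maintains DNA methylation (1.60 ± 0.25 SE, adjusted p = 0.00596), and Mcm3 (1.46 ± 0.18 SE, adjusted p = 0.00302). Other mitotic genes rose for 25 of 46, led by the centromere protein Cenpk (1.61 ± 0.15 SE, adjusted p = 0.00171), Trip13, which disassembles checkpoint complexes (1.61 ± 0.15 SE, adjusted p = 0.00173), Zwilch, which recruits dynein to kinetochores (1.51 ± 0.18 SE, adjusted p = 0.00261), and the spindle protein Tacc3 (1.45 ± 0.19 SE, adjusted p = 0.00371). Regulators of G1 to S rose for 7 of 14, led by cyclin E1 (Ccne1, 1.84 ± 0.19 SE, adjusted p = 0.00205), E2f8 (1.58 ± 0.14 SE, adjusted p = 0.00171) and E2f7 (1.46 ± 0.17 SE, adjusted p = 0.00281), both atypical E2F repressors, and the phosphatase Cdc25a (1.02 ± 0.11 SE, adjusted p = 0.002).

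CDK inhibitors and pocket proteins were mixed, with 3 of 13 higher and 1 lower. Cdkn2a, which codes for p16 and Arf, had the largest change in these 4 lists (5.80 ± 0.20 SE, adjusted p = 1.26e-05), Rbl1, the pocket protein p107, rose by 0.94 ± 0.15 (SE, adjusted p = 0.00612) and Cdkn2b, p15, by 0.89 ± 0.14 (SE, adjusted p = 0.00604), and Cdkn2c, p18, fell (-0.68 ± 0.12 SE, adjusted p = 0.0078). From dysplasia to SCC in epithelia and from normal to dysplasia in fibroblasts limma called 0 in each of the 4 lists. Of all probe sets 0.0258% and 0.171% were called there. At an unadjusted p under 0.05 each list had 0 or 1 gene higher and 1 to 3 lower in the first of these comparisons, and 7 DNA replication genes were higher in the second, with 0 to 2 genes in either direction in the other lists. The shares of all probe sets at that cut are not given here, so these counts are not read as particular to the lists. In SCC against normal fibroblasts, where 7.82% of all probe sets rose and 7.43% fell, 13 of 42 replication genes rose. Of the other mitotic genes 7 of 46 rose and 1 fell, 3 of 14 regulators rose, and 4 of 13 inhibitors rose and 1 fell. Cdkn2a (4.49 ± 0.57 SE, adjusted p = 0.00299), Ccne1 (2.12 ± 0.45 SE, adjusted p = 0.019), Trip13 (1.91 ± 0.31 SE, adjusted p = 0.00833) and Rfc4, a clamp loader subunit (1.66 ± 0.23 SE, adjusted p = 0.00462), led those lists.

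The same motif counts were split by the call in dysplastic epithelia. There, 18 of the 26 called genes with a promoter entry held TTTGAA (69.2%), and 8 of the 14 not called did (57.1%). For CCAAT the counts were 20 of 26 (76.9%) and 11 of 14 (78.6%), and for 2 or more CCAAT matches 16 of 26 (61.5%) and 5 of 14 (35.7%). These are counts of letters in a fixed window, with no test.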

How the data were processed

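RNA of 18 samples, 3 in each of 6 groups taken from the labels, was hybridised to Affymetrix Rat Genome arrays, 1 per sample. The deposited values are linear intensities, for which the authors name RMA and Affymetrix Expression Console without versions; how the linear scale was reached is not stated, and the lowest value on each array is 1. Their log2 was taken here without further normalization. Of 31042 probe sets left after 57 controls, 20826 name 1 gene in the platform annotation, 436 several and 9780 none. The 46 measured genes were matched to RefSeq by Entrez ID.

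Stage comparisons were fitted with limma 3.58.1 (R 4.3.3) to the 9 arrays of a cell type and differences between cell types to all 18, with Benjamini-Hochberg adjustment over 31042 probe sets and a call at an adjusted p under 0.05; tests were two-sided. An exact permutation test of 3 against 3 cannot go below 0.10 and was not used. Genes named with values in every sample were, in each functional group, the 2 with the highest mean signal, and in each comparison the 5 called genes with the largest change. The genes and lists were chosen with earlier results of these data known, so nothing here is independent support for a pattern in them. Same-numbered dysplasia and SCC fibroblast samples correlated over probe sets at 0.321 to 0.592, and differently numbered ones at -0.527 to 0.352. Between normal and dysplasia fibroblasts the same numbers correlated at 0.0255 to 0.194 and different ones at -0.203 to 0.116. Between normal and SCC fibroblasts these ranges were 0.0658 to 0.229 and -0.224 to 0.125. In dysplasia and SCC fibroblasts, samples 1 and 2 correlated across numbers (0.35 and 0.33) as much as those numbered 1 did (0.32). The numbers therefore do not establish a pairing, and the labels give no reason for one. The replicate block is given beside that comparison as an alternative only. The limma step was tested on simulated data. Alternatives were quantile normalization, dropping dim probe sets, alignment on 18 spike-in controls, the replicate block, other sets of samples in the fit, the methods' t-test, eBayes with trend, all probe sets of a gene, and leaving out each sample.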

Additional observations from a re-analysis of the deposited data

Results flagged for a closer look

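The step from normal to dysplasia differed between epithelia and fibroblasts in 6 of the 46 genes, by limma's test of the difference itself over all 18 samples with adjustment over all probe sets. The difference, epithelial minus fibroblast log2 change, was 1.67 for Plk4, 1.65 for Hmmr, 1.49 for Kif11, 1.48 for Bub1, 1.33 for Smc2 and 1.14 for Cks2. The other probe sets of Kif11 and Hmmr gave smaller differences, 0.84 and 1.04, that were not called. No outlier test was run, since each group holds 3 samples.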

How the results depend on the processing

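With 3 arrays a group, most counts of called genes depend on the settings, and the causes of the moves were not tested. Over 12 comparisons, 209 of 264 alternative counts stayed within 1.5 times the reported one and 55 did not; of 2341 repeats of the 116 single calls, 1909 held, 428 no longer passed and 4 turned direction. All 4 turned under alignment on the spike-in controls, which shifts every probe set of an array alike: epithelia minus fibroblasts became 0.16 for Cdk1, 0.017 for Smc2 and 0.26 for Mki67 in normal tissue and 0.41 for Cks2 in dysplasia. That alignment moved the median change of the 46 genes by 0.16 for dysplasia against normal epithelia, -0.11 for the same step in fibroblasts, 0.72 for SCC against dysplasia fibroblasts, 0.61 for SCC against normal fibroblasts, and 0.86, 1.12 and 0.31 for epithelia against fibroblasts in normal tissue, dysplasia and SCC.

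With it, 41 genes were called in SCC against dysplasia fibroblasts, 32 in SCC against normal fibroblasts, 0 for the difference of the step to dysplasia, 40 for that of the step from dysplasia to SCC, and 24, 45 and 6 for epithelia against fibroblasts in normal tissue, dysplasia and SCC. The same alignment called 9161, 7374, 285, 12297, 24566, 26396 and 11224 of all 31042 probe sets in these comparisons. The methods' t-test, adjusted, called 6 in dysplasia and 9 in SCC against normal epithelia, 1 in SCC against dysplasia and 1 in SCC against normal fibroblasts, and 5, 7 and 1 between cell types in the 3 stages. Quantile normalization gave 5 in SCC against normal fibroblasts and 5 between cell types in SCC, and in normal tissue split the calls into 5 higher and 3 lower. A fit of all 18 samples gave 4 in SCC against dysplasia and 18 against normal fibroblasts, and a fit of only the groups compared gave 14 in SCC against normal fibroblasts, 13 between cell types in normal tissue and 1 in SCC.

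The replicate block gave 6 in SCC against dysplasia fibroblasts and 19 in SCC against normal fibroblasts. It gave 31 in dysplasia and 31 in SCC against normal epithelia, and 0 in dysplasia against normal fibroblasts. The numbers are not known to pair samples in any of these comparisons. The block moved no other count of these genes by over 1.5 times. With the block, 846 and 7405 of all probe sets were called in the first pair of these comparisons. Leaving out the third sample of every fibroblast stage, chosen after seeing the data, gave 21, 24 and 38 calls in dysplasia against normal, SCC against dysplasia and SCC against normal fibroblasts. These counts stand without the share of all probe sets called in the same fits, so they are not read as particular to these genes.

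Leaving out 1 sample gave 15 to 32 calls for dysplasia and 22 to 33 for SCC against normal epithelia, 0 to 4 for SCC against dysplasia and 2 to 18 for SCC against normal fibroblasts, 2 to 8 for the difference of the step to dysplasia and 0 to 1 for that over the whole course (1 without normal fibroblast sample 1). Between cell types it gave 5 to 14 in normal tissue, 14 to 31 in dysplasia (15 without dysplasia epithelial sample 1 and 14 without dysplasia fibroblast sample 3) and 1 to 3 in SCC (1 without SCC fibroblast sample 3).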

Other observations

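Of the 18 further probe sets of the measured genes, 11 gave the same call as the one used in dysplasia against normal epithelia and 7 another.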
